A study of Homo sapiens with 40 samples.

Results

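The genes of the proteasome were followed in 10 human lines of non-small cell lung cancer treated with GSK3368712, a compound that inhibits type I protein arginine methyltransferases, or with the vehicle dimethyl sulfoxide (DMSO). The members are all rows of the authors' deposited table with values whose symbol is PSMA, PSMB, PSMC, PSMD, PSME, PSMF or PSMG followed by a number. Of 48 such genes, 46 had values in at least 1 line, out of 19280 genes with values, and 45 had values in all 10 lines, out of 9339. PSMA8, a testis form of an alpha subunit, and PSMB11, the thymus form of a catalytic subunit, had no values, and PSMB9 had none in LK2. PSMB8, PSMB9, PSMB10, PSME1 and PSME2 form the inducible group. The lines labelled LUAD, lung adenocarcinoma, are PC9, NCIH522, NCIH1975 and NCIH1563 (4 lines). Those labelled LUSC, squamous cell carcinoma of the lung, are SW900, SKMES1, NCIH520, NCIH226, LK2 and EBC1 (6 lines). Each line had 2 libraries with GSK3368712 and 2 with DMSO, 40 in all, and the labels give no genetic change made to any line. The row labels also carry D5 and a number, neither of which they explain. Each is an established line grown without the other cells of a tumour.

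The 26S proteasome degrades proteins tagged with ubiquitin. Its barrel, the 20S core, is built of rings of alpha subunits (PSMA genes) around rings of beta subunits (PSMB genes), of which PSMB5, PSMB6 and PSMB7 carry the proteolytic sites. The 19S regulatory particle at its ends unfolds substrates with ATPases (PSMC genes) and binds ubiquitin and removes it with non-ATPase subunits (most PSMD genes). Interferon gamma induces PSMB8, PSMB9 and PSMB10, which replace the constitutive catalytic subunits in the immunoproteasome and favour peptides that fit MHC class I, and PSME1 and PSME2, which form the 11S activator. Chaperones (PSMG genes for the core, PSMD5, PSMD9 and PSMD10 for the regulatory particle) guide assembly and do not stay in the finished complex.

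Promoter sequence was read for 40 of the 46 members from RefSeq windows on GRCh38.p14, with 49 windows of 300 bases, each from 250 bases before a start site to 50 bases from it on. The interferon-stimulated response element, searched on both strands as GAAA, any 2 bases and GAAA, occurred in 7 of the 49 windows (14.3%) and in 3.57% of all 35116 windows. Its commonest form in the member windows, GAAAGCGAAA, which is a case of the same motif and was picked after the matches were seen, occurred in 5 member windows and in 35 of all 35116 (0.0997%). Those 5 belong to PSMB8, PSMB10, PSME1 and PSME2, all in the inducible group, and to PSMG4, an assembly chaperone. The other windows with the element hold it in other forms and belong to PSMA4 and PSMB4, core genes outside the inducible group. The 5 windows with GAAAGCGAAA are printed. The window of PSMB9, the remaining inducible gene, is printed with them and holds no match to the element. Each run covers 200 bases before the start site and 20 from it on, 5′ to 3′ on the strand of the gene, and capitals mark matches on either strand to this element, to TTCNNNGAA (the gamma-activated site) or to TGACNNNGC (the antioxidant response element, which the proteasome regulator NFE2L1 binds).
PSMB8: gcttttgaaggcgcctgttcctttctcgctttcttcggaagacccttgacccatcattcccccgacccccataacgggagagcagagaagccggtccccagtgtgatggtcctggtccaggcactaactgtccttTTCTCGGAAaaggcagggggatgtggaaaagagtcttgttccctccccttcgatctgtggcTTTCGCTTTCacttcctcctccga
PSMB10: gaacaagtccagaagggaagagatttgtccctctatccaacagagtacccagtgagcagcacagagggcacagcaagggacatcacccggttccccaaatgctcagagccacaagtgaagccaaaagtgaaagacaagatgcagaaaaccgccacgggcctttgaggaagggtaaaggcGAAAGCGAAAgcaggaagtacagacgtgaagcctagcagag
PSME1: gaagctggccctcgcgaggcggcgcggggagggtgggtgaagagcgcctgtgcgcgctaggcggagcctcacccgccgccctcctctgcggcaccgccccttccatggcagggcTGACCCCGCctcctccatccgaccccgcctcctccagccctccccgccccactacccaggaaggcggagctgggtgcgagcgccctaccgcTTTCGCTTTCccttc
PSME2: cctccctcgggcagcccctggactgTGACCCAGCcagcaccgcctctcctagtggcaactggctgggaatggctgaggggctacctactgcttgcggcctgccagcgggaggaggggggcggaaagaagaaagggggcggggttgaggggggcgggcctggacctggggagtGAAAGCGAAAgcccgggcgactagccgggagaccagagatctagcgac
PSMG4: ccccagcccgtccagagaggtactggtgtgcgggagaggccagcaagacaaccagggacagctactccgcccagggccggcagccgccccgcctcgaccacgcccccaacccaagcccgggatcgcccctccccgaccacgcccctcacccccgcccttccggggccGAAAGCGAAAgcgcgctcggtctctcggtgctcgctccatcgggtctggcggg
PSMB9: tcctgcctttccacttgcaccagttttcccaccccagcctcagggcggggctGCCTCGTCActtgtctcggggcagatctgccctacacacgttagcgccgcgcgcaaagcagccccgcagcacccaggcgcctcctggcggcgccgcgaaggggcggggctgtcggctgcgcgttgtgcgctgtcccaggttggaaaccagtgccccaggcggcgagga
On GRCh38.p14 these windows lie at chr6:32844028-32844247 on the minus strand for PSMB8, chr16:67936831-67937050 on the minus strand for PSMB10, chr14:24135994-24136213 on the plus strand for PSME1 and chr14:24146591-24146810 on the minus strand for PSME2. The PSMG4 window lies at chr6:3258747-3258966 and the PSMB9 window at chr6:32853992-32854211, both on the plus strand. PSMB8 has a further annotated start site whose window has no match to the element. TTCNNNGAA occurred in 7 of the 49 member windows (14.3%) against 7.66% of all windows, and TGACNNNGC in 15 (30.6%) against 13.3%. These matches are descriptions of letters and not of bound sites.

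The lines were first checked against their labels and the precision of the values. KRT8, KRT18 and KRT19, keratins of simple epithelia, were listed in all 10 lines. Of the other epithelial markers, EPCAM was listed in 8 lines, without NCIH226 and NCIH1563. CDH1 was listed in 7, without SKMES1, NCIH1563 and NCIH522. PTPRC, the pan-leukocyte gene CD45, was listed in none, and of 7 immune cell markers only CD79A was listed, in NCIH1975. COL1A1, a collagen gene of fibroblasts, was listed in all 10 lines and the other fibroblast markers in 1 to 3. The squamous marker TP63 was listed in 2 LUSC and 2 LUAD lines and SOX2 in 4 and 1. KRT5 was listed in 2 LUSC lines and 1 LUAD line, KRT6A in 1 of each and DSG3 in none. Of the adenocarcinoma markers, the lung lineage gene NKX2-1 was listed in 3 LUSC lines and 1 LUAD line and NAPSA in 2 and 1. SFTA3 was listed in 1 of each, SFTPB in 1 LUSC line and KRT7 in all 10 lines. SOX2 was listed mostly in LUSC lines, but no marker of either list separated the labelled subtypes. The median standard error of the members' log2 fold changes in the authors' deposited table was between 0.069 and 0.087 for each LUSC line. It was larger in the LUAD lines, at 0.280 for NCIH1975, 0.276 for PC9, 0.218 for NCIH522 and 0.179 for NCIH1563. A line with larger errors yields fewer calls at the same fold change. In bulk RNA, fewer cells of a type and less RNA per cell cannot be told apart.

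The main comparison asked which proteasome genes changed with GSK3368712 across lines, with the line as the replicate. Most members moved little. Of the 45 members with values in every line, 1 rose and 3 fell past limma's adjusted p of 0.05 (8.89%), against 21.6% of the 9339 genes tested. At an unadjusted p under 0.05 the count was 7 of the 45 members, against 3230 of the 9339 genes tested. Among all genes tested 9.5% were higher and 12.1% lower. The median of the members' mean log2 fold changes was −0.02, against 0.00 over all genes tested. The mean was positive for 17 members and negative for 28. No member had the same sign in all 10 lines, against 4.39% of all genes above 0 and 5.43% below 0 in every line. The map of members by line shows the same picture.

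**Figure D1:**
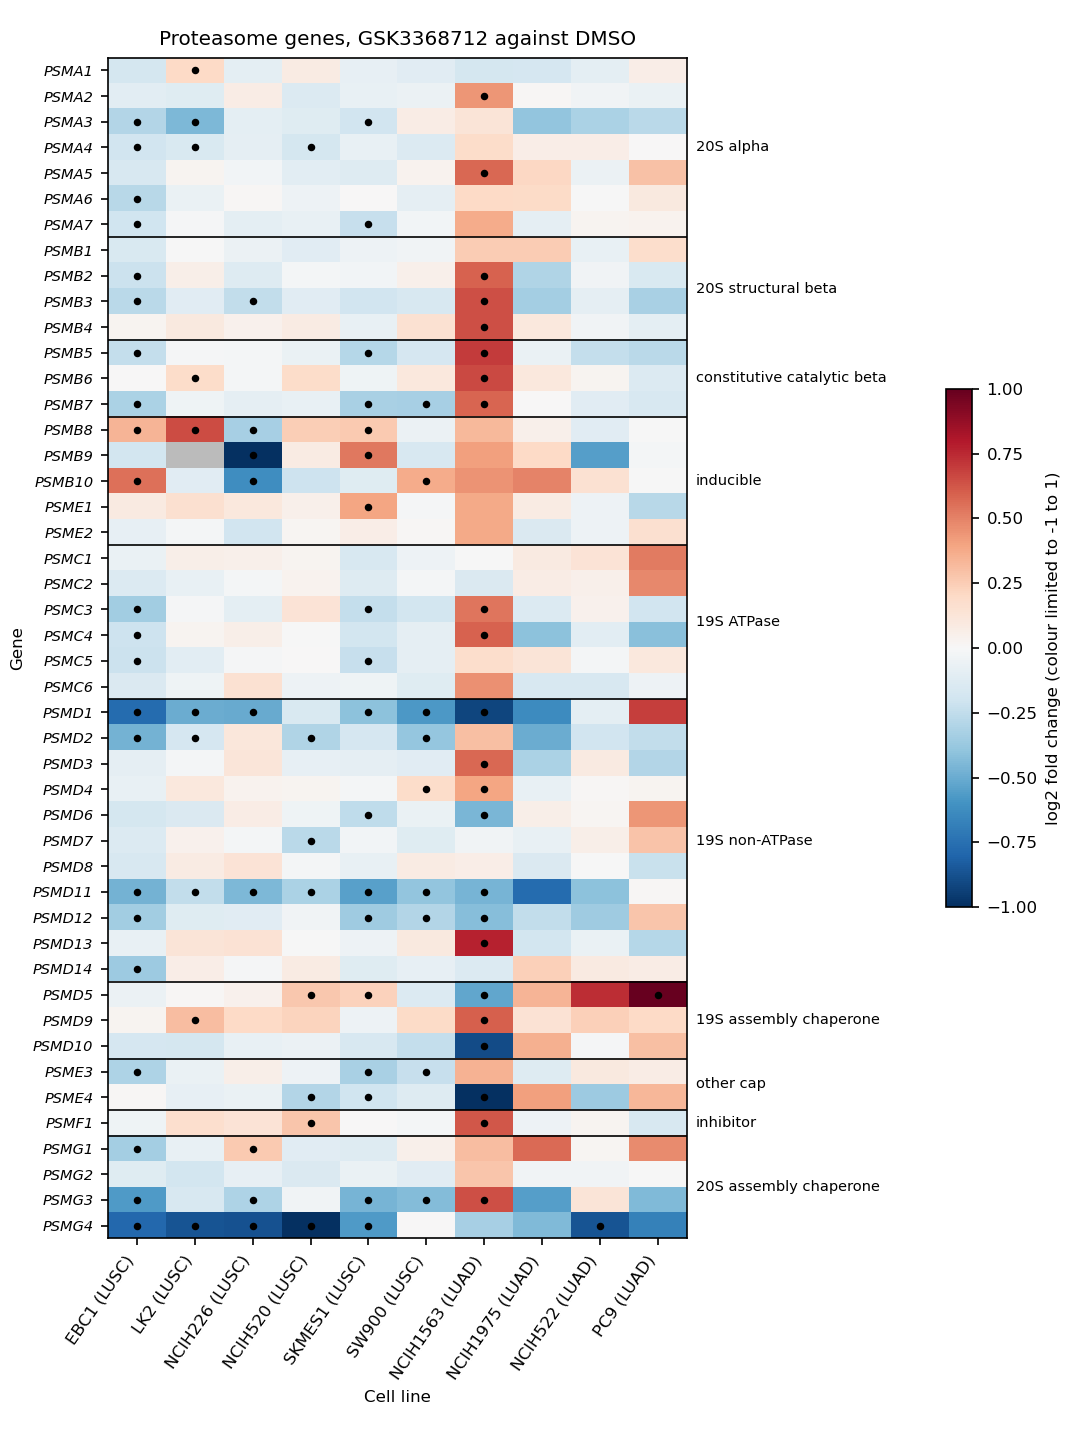
Log2 fold change of GSK3368712 over DMSO in the authors' deposited table for 46 proteasome genes (rows, grouped by role) in 10 cell lines (columns); black dots mark an authors' adjusted p under 0.05, and grey is a gene with no value. PSMG4, PSMD11 and PSMD1 are blue in 9 of 10 lines, while 13 of the 14 constitutive core genes are above 0 in NCIH1563 and most are below it in EBC1.

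PSMG4, a subunit of the chaperone that assembles the alpha ring, had the lowest mean. In the authors' deposited table its log2 fold change was −0.78 in EBC1, −0.86 in LK2, −0.87 in NCIH226, −1.001 in NCIH520, −0.56 in SKMES1 and 0.01 in SW900. In the LUAD lines the authors' deposited table gives −0.33 in NCIH1563, −0.45 in NCIH1975, −0.86 in NCIH522 and −0.68 in PC9. In 9 of 10 lines it was below 0, with SW900 at no change. The mean was −0.64 ± 0.31 (SD, n = 10; limma adjusted p = 0.000552), and the authors called it lower in 6 lines. PSMG4 (GRCh38 chr6:3231403-3303373, plus strand, in GENCODE 29) overlaps exons of TUBB2B and SLC22A23 on the opposite strand in a minor part of its exonic bases. The libraries were stranded, but no counting strand is stated, so the assignment of reads from the shared bases is uncertain. The 3 other core chaperones did not pass the test. PSMG3, the partner of PSMG4, stood at −0.22 ± 0.38 (limma adjusted p = 0.177), with 4 lines called lower and NCIH1563 called higher at 0.64 in the authors' deposited table. PSMG1 stood at 0.10 ± 0.29 and PSMG2, its partner, at −0.05 ± 0.13.

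Of the 11 non-ATPase genes of the 19S particle, 2 fell and none rose (18.2%, near the 21.6% of all genes tested). PSMD11, the lid subunit Rpn6 that clamps the regulatory particle to the core, ranged from −0.77 in NCIH1975 to 0.01 in PC9 with a median of −0.43 in the authors' deposited table. Only PC9 was not below 0, and the authors called it lower in 7 lines. Its mean was −0.40 ± 0.20 (SD, n = 10; limma adjusted p = 0.00195). The calls for PSMG4 and PSMD11 remained when any 1 line was left out, with adjusted p of at most 0.00213 and 0.00674 by limma.

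PSMD1, the large scaffold subunit Rpn2 of the 19S base, lay between −0.92 in NCIH1563 and 0.70 in PC9 with a median of −0.50 in the authors' deposited table. The value was below 0 in 9 of 10 lines and PC9 stood apart above it. The PC9 value had a standard error of 0.35 and was not called (authors' DESeq2 adjusted p = 0.261). The mean was −0.39 ± 0.45 (limma adjusted p = 0.0451), and 6 lines were called lower. This call was lost when any line other than PC9 was left out (highest adjusted p = 0.101, without EBC1), and without PC9 the mean was −0.51 (limma adjusted p = 0.00229). PSMD1 (GRCh38 chr2:231056864-231172827, plus strand) overlaps exons of HTR2B on the opposite strand.

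PSMD12, the lid subunit Rpn5, stood at −0.20 ± 0.21 (limma adjusted p = 0.0688) with 9 of 10 lines below 0. PSMD2, the other scaffold subunit Rpn1, stood at −0.20 ± 0.25 (limma adjusted p = 0.0954) with 8 of 10 below 0. Neither passed the main test with all lines. Without PC9, PSMD12 passed at −0.25 (limma adjusted p = 0.0143), and without NCIH1563, PSMD2 passed at −0.26 (0.0136). With GC content and length regressed out over all lines, PSMD2 passed at −0.24 (limma adjusted p = 0.0235), while PSMD12 stood at −0.15 (0.140). The ubiquitin receptor PSMD4 and the deubiquitinase PSMD14 stood at 0.06 ± 0.14 and −0.02 ± 0.17. None of the 6 ATPase genes passed limma's test or had an unadjusted p under 0.05, and their means ran from −0.07 for PSMC4 to 0.06 for PSMC1. Pseudogenes of PSMC1 had values in all 10 lines in the authors' deposited table, so the assignment of reads to PSMC1 is uncertain.

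PSMD9, a chaperone of the 19S base, was the member that rose. Its values in the authors' deposited table ran from −0.05 in SKMES1 to 0.60 in NCIH1563 with a median of 0.20. All lines but SKMES1 were above 0. The mean was 0.21 ± 0.17 (SD, n = 10; limma adjusted p = 0.042), and the authors called it higher in 2 lines. The call was lost without LK2, NCIH226, NCIH520, SW900, NCIH1975, NCIH522 or PC9 (highest adjusted p = 0.0911, without LK2). PSMD9 (GRCh38 chr12:121888731-121918297, plus strand) shares exonic bases with AC069503.2 and WDR66 on the same strand, so its read assignment is uncertain.

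**Figure D2:**
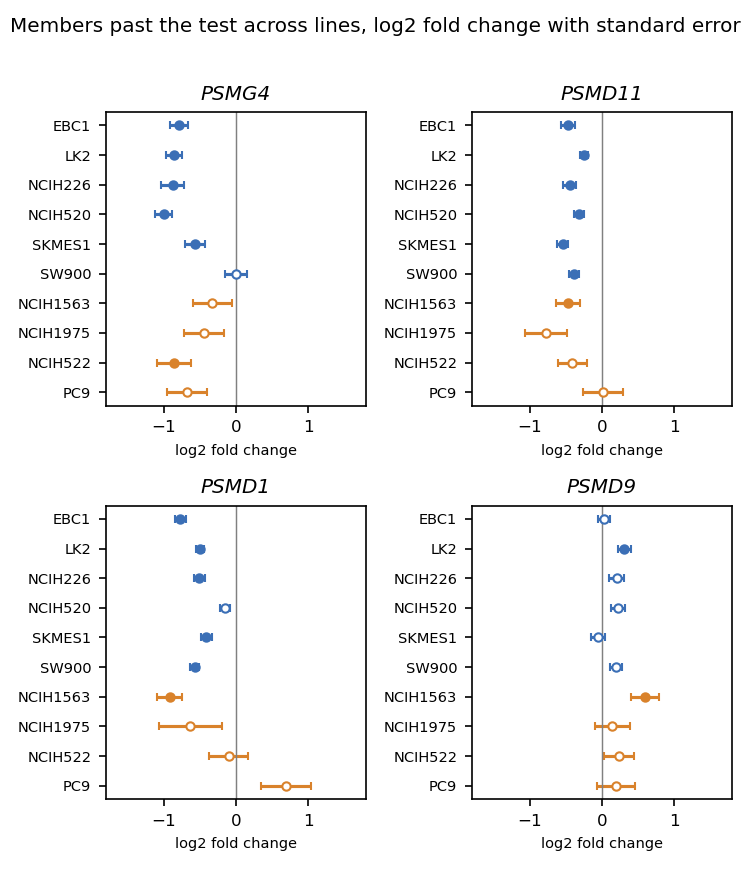
Log2 fold change with standard error (horizontal axis) in the authors' deposited table for the 4 members past the test across lines, by cell line; blue is LUSC, orange LUAD, and filled points have an authors' adjusted p under 0.05. PSMD11 lies below 0 in every line but PC9, and PSMD1 in PC9 is at 0.70 on the other side of 0.

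The other 19S chaperones differed widely between lines. PSMD5, which binds ATPase subunits during assembly, stood at 1.23 in PC9, 0.74 in NCIH522 and −0.52 in NCIH1563 in the authors' deposited table. Its mean of 0.21 ± 0.49 did not pass the test (limma adjusted p = 0.284). PSMD10 (gankyrin) stood at −0.90 in NCIH1563 and between −0.24 and 0.35 in the other lines in the authors' deposited table. The alternative caps PSME3, the nuclear activator PA28 gamma, and PSME4, the activator PA200, stood at −0.05 ± 0.21 and −0.17 ± 0.48. PSMF1, the inhibitor PI31, stood at 0.10 ± 0.22.

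None of the 14 constitutive core genes passed limma's test, and 1, PSMA3, had an unadjusted p under 0.05. Among the 7 alpha genes, PSMA3 had the lowest mean at −0.19 ± 0.19 (limma adjusted p = 0.0685), with 8 of 10 lines below 0. The alpha gene with the highest mean was PSMA5 at 0.07 ± 0.23. Of the 4 structural beta genes, PSMB3 stood at −0.12 ± 0.28, below 0 in every line but NCIH1563. Without NCIH1563, PSMA3 passed the test at −0.23 (limma adjusted p = 0.0176), PSMB3 at −0.21 (0.0118) and PSMG3 at −0.31 (0.0114). The constitutive catalytic genes PSMB5, PSMB6 and PSMB7 stood at −0.07 ± 0.29, 0.11 ± 0.22 and −0.09 ± 0.26.

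The next question was whether the genes that interferon gamma induces changed. None of the 4 tested in all lines passed limma's test, and 0 had an unadjusted p under 0.05. PSMB8 stood at 0.14 ± 0.28 (limma adjusted p = 0.292), PSMB10 at 0.10 ± 0.37 (0.580), PSME1 at 0.09 ± 0.20 (0.390) and PSME2 at 0.01 ± 0.16 (0.904). PSMB9, tested among the 12111 genes listed in at least 7 lines, stood at −0.12 ± 0.58 (SD, 9 lines; limma adjusted p = 0.662), where 20.2% of genes were called. Without NCIH226 its mean was 0.04.

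PSMB8, which replaces PSMB5, was called in 4 lines. In the authors' deposited table it stood at 0.34 in EBC1, 0.65 in LK2, −0.33 in NCIH226, 0.25 in NCIH520, 0.27 in SKMES1 and −0.06 in SW900. In the LUAD lines the same deposited table of the authors gives 0.33 in NCIH1563, 0.05 in NCIH1975, −0.11 in NCIH522 and 0.00 in PC9. EBC1, LK2 and SKMES1 were called higher and NCIH226 lower.

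PSMB9, which replaces PSMB6, had the most negative value of any member in NCIH226. There the authors' deposited table gives −1.40 with a standard error of 0.10 (authors' DESeq2 adjusted p = 1.23e-39). Its other values in the authors' deposited table were −0.18 in EBC1, 0.08 in NCIH520, 0.53 in SKMES1, −0.16 in SW900, 0.41 in NCIH1563, 0.20 in NCIH1975, −0.55 in NCIH522 and −0.02 in PC9. SKMES1 was called higher and NCIH226 lower.

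PSMB10, which replaces PSMB7, was called in 3 lines. The authors' deposited table has it at 0.55 in EBC1, −0.11 in LK2, −0.62 in NCIH226, −0.20 in NCIH520, −0.12 in SKMES1 and 0.37 in SW900. In the LUAD lines it stood at 0.45, 0.49, 0.15 and 0.00 in NCIH1563, NCIH1975, NCIH522 and PC9 in the authors' deposited table. EBC1 and SW900 were called higher and NCIH226 lower. PSMB10 shares exonic bases with AC040162.1 on the same strand, so its assignment is uncertain.

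The activator genes moved less. PSME1 was called only in SKMES1, at 0.40, and its lowest value in the authors' deposited table was −0.28 in PC9. PSME2, its partner, had no call and ran from −0.19 in NCIH226 to 0.38 in NCIH1563 in the authors' deposited table. With GC content and length regressed out, the NCIH1563 values changed sign for PSME2 (−0.10), PSMB8 (−0.08) and PSMB10 (−0.12), and PSME1 stood there at 0.08. In NCIH226, PSMB8, PSMB9 and PSMB10 were all called lower while PSME1 stood at 0.11. In SKMES1, PSMB8, PSMB9 and PSME1 were called higher while PSMB10 was below 0. Neither PSME1 in NCIH226 (authors' DESeq2 adjusted p = 0.356) nor PSMB10 in SKMES1 (0.377) was called. Any link of GAAAGCGAAA in the printed windows to these fold changes was not tested.

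**Figure D3:**
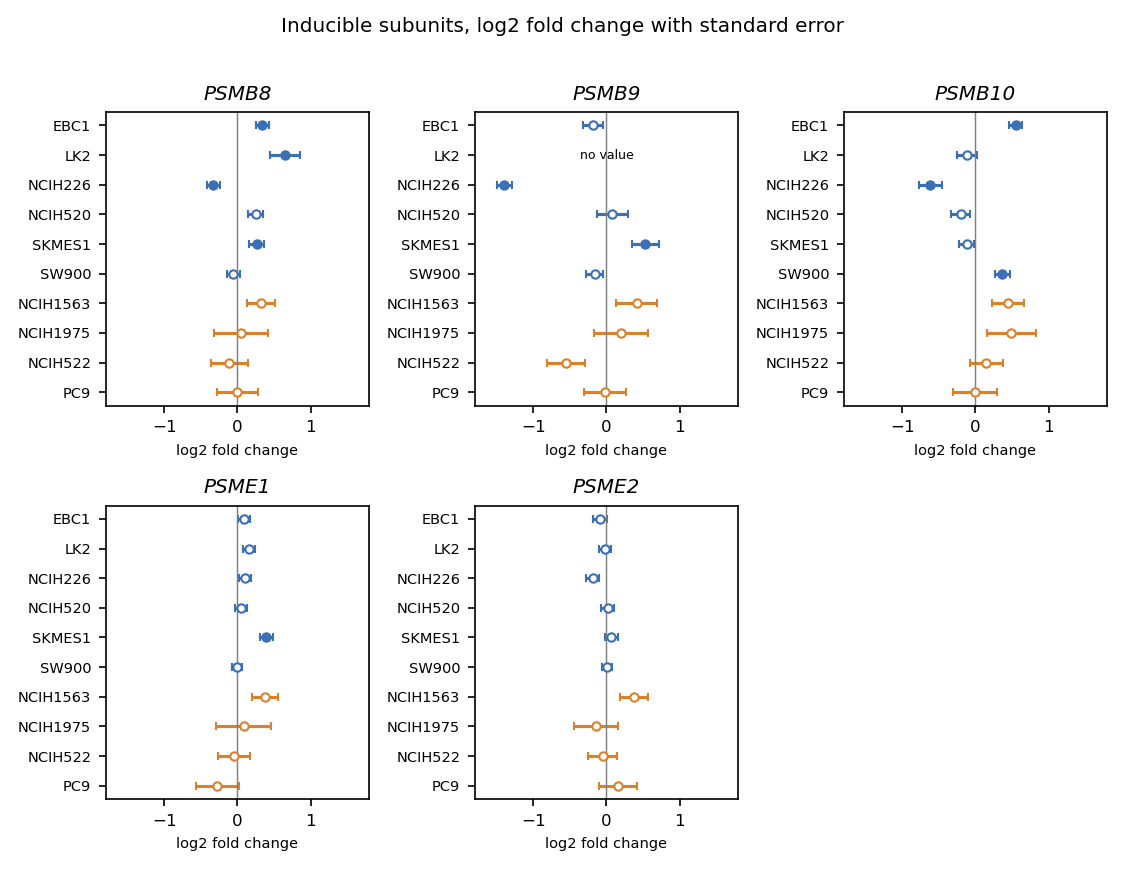
Log2 fold change with standard error (horizontal axis) in the authors' deposited table for the 5 inducible genes by cell line; blue is LUSC, orange LUAD, and filled points have an authors' adjusted p under 0.05. PSMB8, PSMB9 and PSMB10 lie below 0 in NCIH226, where PSMB9 reaches −1.40, and PSME2 has no filled point.

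PSMB8 and PSMB9 are neighbours in the MHC class II region beside TAP1 and TAP2, which carry peptides into the endoplasmic reticulum. PSMB8 (GRCh38 chr6:32840717-32844703, minus strand) and PSMB9 (chr6:32844136-32859585, plus strand) share 139 exonic bases on opposite strands in GENCODE 29, and PSMB8-AS1 overlaps both. PSMB8-AS1 had values in 7 lines, with −1.96 in NCIH1563, −0.98 in NCIH226, −0.72 in SW900 and −0.07 in NCIH1975 in the authors' deposited table. In EBC1, PC9 and SKMES1 it stood at 0.24, 0.22 and 0.09 in the authors' deposited table. PSMB8-AS1 shares exonic bases with PSMB9 on the same strand, so the assignment of reads among these genes is uncertain. A RefSeq window of TAP1 overlaps that of PSMB9 on the opposite strand. The TAP1 windows hold matches to the interferon-stimulated response element, among them GAAAGCGAAA, and to TTCNNNGAA. These matches lie outside the bases shared with the PSMB9 window. TAP1 stood at 1.25 in LK2, −0.45 in NCIH226 and −0.65 in SW900 in the authors' deposited table, and its mean was −0.01 ± 0.52.

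Each inducible catalytic gene was set beside the constitutive gene it replaces. PSMB8 minus PSMB5 was 0.20 ± 0.35 on the log2 scale (SD, 10 lines), above 0 in 8 lines and from −0.37 in NCIH1563 to 0.66 in LK2. PSMB10 minus PSMB7 was 0.18 ± 0.42, above 0 in 6 of 10 lines. PSMB9 minus PSMB6 was −0.22 ± 0.54, above 0 in 3 of 9 lines. These differences of fold changes were not tested.

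Levels were compared between genes as the authors' mean normalized counts per kilobase of principal transcript and per 1000000 of a line's sum. These means pool both arms, so they have no SD and show how much of each gene a line held. PSMB8 ran from 3.55 in LK2 and 6.85 in NCIH522 to 110 in NCIH226, with a median of 58.4. PSMB5 ran from 54.8 in EBC1 to 299.98 in NCIH1563. PSMB8 made up 2.75% of the PSMB8 and PSMB5 sum in NCIH522 and 65.4% in NCIH226, with a median of 28.99% over lines.

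PSMB9 made up 1.66 to 33.1% of its pair with PSMB6, with a median of 12.3%, and PSMB10 made up 4.21 to 21.5% of its pair with PSMB7, with a median of 10.7%. With the longest transcript in place of the principal one, the medians were 16.2% for PSMB8 and 4.02% for PSMB9, so these shares depend on the transcript length used. PSMB8 was above PSMB5 in EBC1 and NCIH226 by the principal transcript and in no line by the longest.

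**Figure D4:**
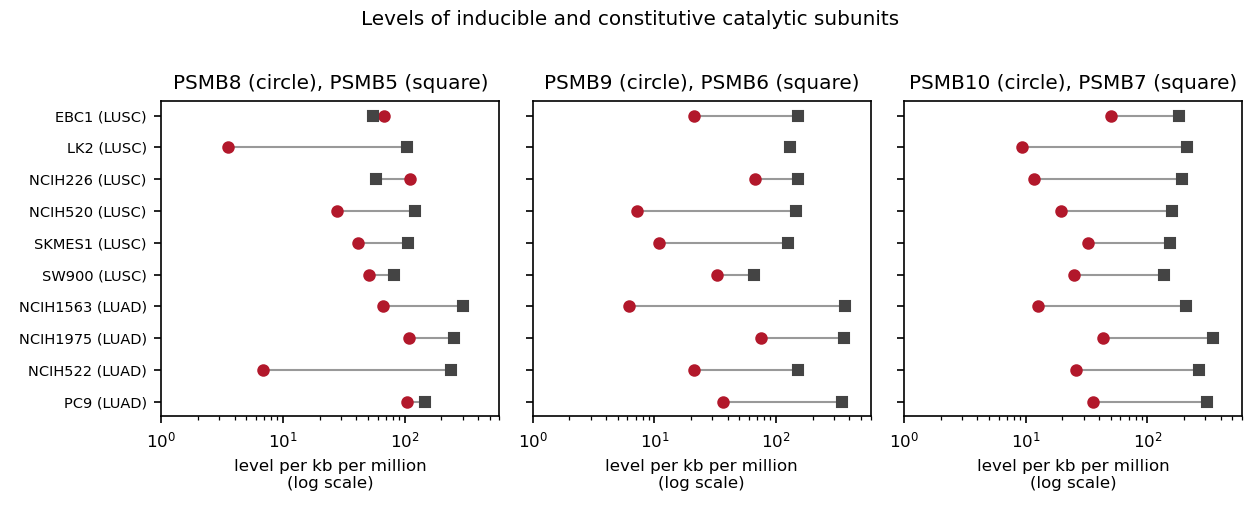
Level (mean normalized counts per kilobase and per 1000000, log axis) of each inducible catalytic gene (red circles) and the constitutive gene it replaces (grey squares) in 10 cell lines, from the authors' deposited means over both arms. PSMB8 exceeds PSMB5 only in EBC1 and NCIH226 (in no line if the longest transcript is used), while PSMB9 and PSMB10 lie below their partners in every line that lists them.

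The comparison within each line used the authors' adjusted p under 0.05, with the share of all listed genes called beside it. In EBC1, 2 members were higher (background 23.0%) and 20 lower (background 23.4%), so 47.8% of 46 members were called against 46.4% of all genes. Both members that were higher, PSMB8 and PSMB10, are inducible, and all 20 lower ones are not. In NCIH1563, 16 were higher (background 23.3%) and 7 lower (background 24.8%), or 50% against 48.1%. In SKMES1, 4 were higher (background 15.8%) and 14 lower (background 15.6%), or 39.1% against 31.4%. Taken in either direction, the shares of members called in these 3 lines were near the background or a little above it. The directions were uneven among the members, although the backgrounds for higher and lower were close. Lower calls outnumbered higher ones in EBC1 and SKMES1, and higher calls outnumbered lower ones in NCIH1563.

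The other LUSC lines had fewer calls than their background. LK2 had 4 higher and 6 lower (22.2% called against 39.3%), with backgrounds of 19.9% higher and 19.5% lower. NCIH226 had 1 higher and 8 lower (19.6% against 31.2%), with backgrounds of 15.4% and 15.8%. NCIH520 had 2 higher and 6 lower (17.4% against 23.8%), with backgrounds of 11.4% and 12.3%. The 8 lower members of NCIH226 include PSMB8, PSMB9 and PSMB10.

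SW900 had 2 higher and 7 lower (19.6% against 35.7%), with backgrounds of 18.0% and 17.7%. In NCIH1975 no member was called, where 7.91% of all genes were (4.33% higher, 3.58% lower). There, by the authors' DESeq2 statistic 2 of 46 members had an unadjusted p under 0.05. The share of all genes at that level is not given. NCIH522 had 1 lower, PSMG4, or 2.17% of members against 1.66% of all genes (0.912% higher, 0.75% lower). PC9 had 1 higher, PSMD5, or 2.17% against 4.47% (2.56% higher, 1.91% lower).

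NCIH1563 and EBC1 had opposite directions in the core. In NCIH1563, 8 of the 14 constitutive core genes were called higher and none lower (57.1%, against 23.3% of all listed genes higher), with a median log2 fold change of 0.51. PSMB5 stood there at 0.70, PSMB6 at 0.66 and PSMB7 at 0.58 in the authors' deposited table. In EBC1, 8 of 14 were called lower and none higher (57.1%, against 23.4% of all listed genes lower), with a median of −0.20. There PSMB5 stood at −0.24 and PSMB7 at −0.32 in the authors' deposited table, and PSMB6 at 0.01. The 17 subunit genes of the 19S particle were mixed in NCIH1563 (52.9% called, against 48.1% of all listed genes), with 5 higher, such as PSMD13 at 0.77, and 4 lower, such as PSMD1 at −0.92, in the authors' deposited table.

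Fold changes in NCIH1563 and PC9 went with the base composition and length of the transcripts. Over all genes, GC content and length took up 25.1% of the variance of the fold changes in NCIH1563 and 21.8% in PC9, against 0.58 to 8.92% in the other lines. Over the 45 members the correlation of fold change with GC content was r = 0.48 in NCIH1563 and −0.53 in PC9, across genes that share libraries and are not independent. With GC content and length regressed out, the median of the members fell from 0.33 to 0.12 in NCIH1563, and in PC9 it was 0.10 in place of 0.00. PSMB5 in NCIH1563 was then at 0.44, PSMB6 at 0.22 and PSME4 at −0.75, which the authors' deposited table has at −1.33. The means of PSMG4, PSMD11, PSMD1 and PSMD9 stayed on the same side of the test after that step. PSMD2, which had not passed the main test, passed after it at −0.24 (limma adjusted p = 0.0235).

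**Figure D5:**
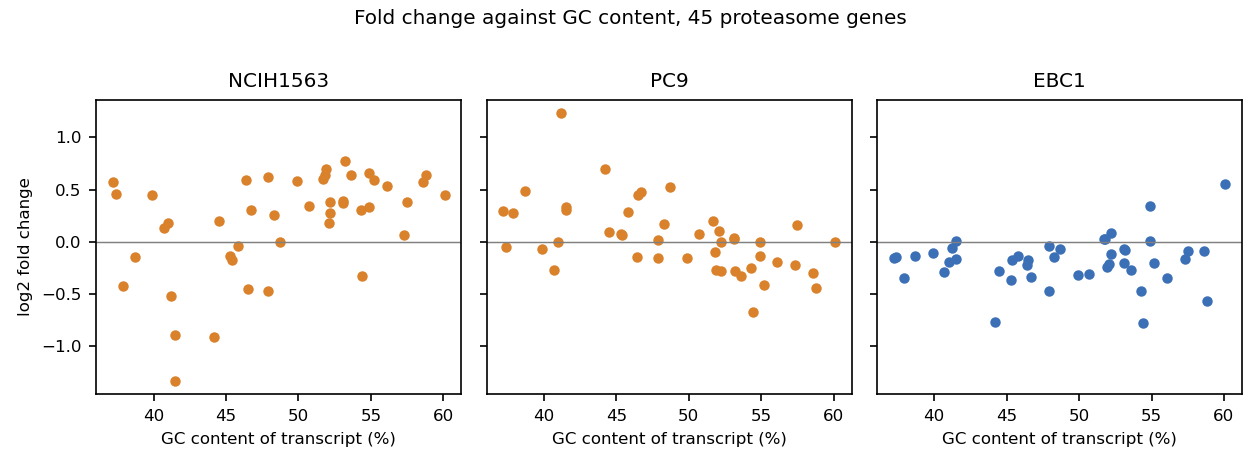
Log2 fold change in the authors' deposited table (vertical axis) against GC content of the principal transcript (horizontal axis, percent) for 45 proteasome genes in 3 lines; each point is a gene. Points rise with GC content in NCIH1563 (r = 0.48), fall in PC9 (r = −0.53) and show little slope in EBC1 (r = 0.14).

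Whether fold changes differed between lines beyond the authors' standard errors was tested by Cochran's Q. It was past the adjusted p of 0.05 for 26 of 45 members (57.8%), against 65.9% of all genes. PSMB10 had the largest Q at 69.6 (adjusted p = 1.92e-10), followed by PSMD1 at 62.3, PSMD2 at 51.1, PSMG3 at 51.0 and PSMB8 at 48.1. PSMG2 had the smallest at 4.77. PSMD11, which fell across lines, did not pass this test (Q = 16.9, adjusted p = 0.0734). Between subtypes no member passed limma's adjusted p (background 0.0107%, which is 1 gene). An unadjusted p under 0.05 was reached by 2 of 45 members, with no share of all genes given. PSMG1 had the smallest p, with LUAD above LUSC by 0.40 (limma adjusted p = 0.842), followed by PSMA5 at 0.31 (limma adjusted p = 0.887).

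Genes around the proteasome were followed from lists chosen by function. Of 14 proteasome cofactors tested, 3 rose and 1 fell (28.6%, against 21.6% of all genes tested), with a median of the means of 0.04. ZFAND2A and ZFAND5, zinc finger proteins that bind the proteasome, rose by 0.33 ± 0.30 and 0.27 ± 0.24, and FBXO7, a partner of PSMF1, by 0.18 ± 0.09. UCHL5, a deubiquitinase of the 19S particle, fell by 0.28 ± 0.18, below 0 in 10 of 10 lines, and missed the threshold with GC content and length regressed out (limma adjusted p = 0.0551). The call of ZFAND5 was lost without SKMES1, SW900, NCIH1975 or PC9 and that of FBXO7 without any 1 of 7 lines (highest adjusted p = 0.0758 and 0.0856 by limma). Of 11 genes around NFE2L1, the factor that drives proteasome genes when proteasome activity is short, 1 fell and none rose (9.09%). That gene was HCFC1, a partner of the glycosyltransferase OGT, at −0.27 ± 0.14 (limma adjusted p = 0.00824). NFE2L1 stood at 0.15 ± 0.16 with 9 of 10 lines above 0 (limma adjusted p = 0.109).

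Of 14 ubiquitin genes and shuttle factors, 1 passed the test (7.14%, against 21.6% of all genes tested). NUB1, which sends NEDD8 and its conjugates to the proteasome, rose by 0.24 ± 0.18, and its call was lost without EBC1 or SKMES1 (highest limma adjusted p = 0.0642). Of 9 interferon regulators and MHC neighbours reported that had values in all lines, 3 rose and 1 fell (44.4%, against 21.6% of all genes tested), with a median of 0.10. SOCS1, JAK2 and NLRC5, tested among genes in at least 7 lines, did not pass (limma adjusted p = 0.378, 0.492 and 0.589), although the authors called NLRC5 lower in 4 lines. IFNGR1, a chain of the interferon gamma receptor, rose by 0.45 ± 0.39, and IRF9 by 0.32 ± 0.32. IRF1, which acts at the promoters of PSMB8 and PSMB9, rose by 0.36 ± 0.41. TAP2 fell by 0.24 ± 0.21. With GC content and length regressed out, the call of IRF9 was lost (limma adjusted p = 0.0728). The call of IFNGR1 remained with any 1 line left out, while those of IRF9, IRF1 and TAP2 were lost without EBC1, SKMES1 or NCIH1975 and some other lines (highest limma adjusted p = 0.0762, 0.0926 and 0.0883).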

How the data were processed

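RNA from 40 libraries was made into stranded mRNA libraries and sequenced as paired reads, per the labels' protocols. The submitters' processing notes name Salmon 0.12.0, GRCh38 and DESeq2, the last without a version. Per the labels, genes at an FPKM of 1 or less were removed from a comparison. The authors' deposited table gives, per gene and line, a log2 fold change with its standard error, an adjusted p-value, a test statistic (a score) and mean normalized counts (a signal over both arms). No values per library were analysed here, so depth per library gives no interval; the means summed to 57647556 to 108557964 per line. GSK3368712 was taken as the numerator because the row labels name it first. No source used here states that replicate libraries were separate cultures, so the authors' p-values may measure technical spread.

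Across lines, limma 3.58.1 (R 4.3.3) tested mean log2 fold changes against 0 over 9339 genes, or 12111 genes in at least 7 lines, with Benjamini-Hochberg adjustment over all of them. The same tool compared subtypes, and Cochran's Q tested differences between lines. On simulated data the limma test across lines found 74% of shifts of 0.5 and 100% of shifts of 1, with 4.40% of calls false. GC content, positions and principal transcript lengths came from GENCODE 29 (19245 of 19280 gene IDs matched), promoters from RefSeq, and figures from Python 3.11.15 with matplotlib 3.10.9. All members could be named; of each other list, up to 4 genes with the smallest p, and IRF1, TAP1, TAP2 and NFE2L1. Members and lists were chosen with earlier results of these data known. A gene of the interferon list is not reported here. Alternatives were other filters, centring, tests and thresholds, each line left out, and, added after seeing the data, GC and length regression, subsets of lines and longest transcripts.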

Additional observations from a re-analysis of the deposited data

Results flagged for a closer look

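Of 46 members, 18 had 1 line outlying from the others by Dixon's test at the 95% level, and 15 of the 18 were in NCIH1563. Only members were put through Dixon's test, so no share of all genes stands beside these counts. Whether the outlying values are particular to the proteasome was not tested. Chance gives about 1 in 20 for independent groups of equal spread. That is not the chance rate here, because members share libraries and their median standard error was 0.179 in NCIH1563 and 0.276 in PC9, against 0.069 to 0.087 in the LUSC lines. In the authors' deposited table the values standing above the other lines there were 0.444 for PSMA2, 0.374 for PSMA7, 0.593 for PSMB2, 0.642 for both PSMB3 and PSMB4, 0.701 for PSMB5, 0.657 for PSMB6 and 0.579 for PSMB7. Further high values in NCIH1563 were 0.591 for PSMC4, 0.457 for PSMC6, 0.572 for PSMD3, 0.769 for PSMD13 and 0.279 for PSMG2 in the authors' deposited table. PSMD10 at −0.895 and PSME4 at −1.331 stood below the other lines in NCIH1563. In PC9, PSMC1 at 0.523, PSMC2 at 0.482 and PSMD1 at 0.695 stood above the other lines in the authors' deposited table. None of these PC9 values was called (authors' DESeq2 adjusted p = 0.329, 0.444 and 0.261). NCIH1563 and PC9 are also the lines with the largest share of fold-change variance taken up by GC content and length, 25.1% and 21.8%; the part of this in the outlying values was not tested.

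PSMA4 had opposite signs in the subtypes, above 0 in all 4 LUAD lines and below 0 in all 6 LUSC lines, with a difference of means of 0.22 (LUAD minus LUSC). By limma this difference had an unadjusted p of 0.0667 and an adjusted p of 0.950. The PC9 value was 0.001 with a standard error of 0.261. With GC content and length regressed out, PSMA4 was at −0.05 in NCIH1975 and −0.07 in PC9, so the sign pattern did not hold.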

How the results depend on the processing

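The count of members that rose across lines was 1, and became 2 by random-effects meta-analysis, 0 in LUSC lines alone, 0 in LUAD lines alone, 0 without NCIH1975, NCIH522 and PC9, and 0 to 1 when each line was left out. The count that fell was 3, and became 12 by random effects, 6 in LUSC lines alone, 0 in LUAD lines alone and 2 to 6 with each line left out (6 without NCIH1563). Random effects gave 48.5% false calls on simulated data, a share that depends on how few genes were shifted there, and LUAD alone has 4 lines. Cochran's Q called 26 members, 17 in LUSC lines alone and 15 to 29 with each line left out (15 without NCIH1563). The shares of all genes called under these alternatives are not given, so whether the member counts depart from them is not shown. Over all lines 32 member values were called higher and 69 lower. The shares of all genes beside these calls are given line by line above. At an adjusted p of 0.01 the counts were 21 higher and 49 lower. The authors' mark, which also needs an absolute log2 fold change of 1, was set for 1 higher and 3 lower. No share of all genes is given for the counts at 0.01 or by the mark, so they are not read as particular to the proteasome. Besides its loss with lines left out, PSMD1 missed the threshold by an ordinary test (adjusted p = 0.0941) and an exact sign-flip test (0.113). It also missed it among genes in at least 7 lines (0.056). The sign-flip test did call PSMG4 and PSMD11 (adjusted p = 0.0278 for both) and PSMD9 (0.0353). On simulated data it found 0% of shifts of 1. Too few genes were shifted there for its smallest possible p to pass the adjustment, so that 0% does not measure its power here. PSMG4 was not in the top 75% of genes by expression and so was not tested there. No call changed sign under any alternative run. The causes of these changes were not tested. No paired analysis was possible because the table holds no values per library, although the labels number the libraries N1 and N2.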
